A study of Mus musculus with 7 samples.

Results

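Glycolysis splits glucose into pyruvate in the cytosol and yields ATP and NADH. Hexokinase traps glucose as glucose 6-phosphate, phosphofructokinase commits it to the pathway, aldolase and triose phosphate isomerase handle the cleavage into trioses, and phosphoglycerate kinase, phosphoglycerate mutase and enolase lead to the substrate of pyruvate kinase. In brain, neurons and glia express different isozymes of several steps. Here mRNA of 10 glycolytic enzymes was followed in mouse dorsal midbrain: Hk1, Gpi1, Pfkl, Pfkm, Pfkp, Aldoa, Tpi1, Pgk1, Pgam1 and Eno1. They were taken by symbol through the GENCODE annotation, with no threshold on their values, and are 10 of the 52636 genes counted. All 10 passed the filter on low counts.

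The study asked which genes depend on Brn3b (Pou4f2), a POU-domain transcription factor of dorsal midbrain neurons. Control mice were Brn3b flox/+ :: En1-Cre, labelled heterozygote, and Brn3b cKO mice were Brn3b flox/- :: En1-Cre, labelled homozygote. Both genotypes thus carried En1-Cre, which is active in midbrain and hindbrain, and 1 flox allele that expresses human placental alkaline phosphatase once recombined, and the cKO mice also carried a Brn3b null allele in every tissue. The 3 control libraries were A2 (postnatal day 4, P4), A4 (P3) and A6 (P4), and the 4 cKO libraries were B1 (P4), B7 (P2), B8 (P4) and B9 (P2), so P2 mice were present in the cKO group and not among the controls. Age and genotype cannot be fully told apart in this design. Counts on genes ranged from 23588248 in A2 to 87572085 in B9, with a median of 39251318. Brn3b itself, the deleted gene, stood at 46.6 ± 0.824 CPM (SD, n = 3) in controls against 10.4 ± 0.920 CPM (SD, n = 4) after its deletion. CPM stands for counts relative to the library size, with TMM scaling between libraries. Brn3b was the 1 gene of 21817 tested with an adjusted p under 0.05 (edgeR adjusted p = 0.000566), or 0.00458% of the genes. The remaining Brn3b level in B8 was 10.6 CPM, within the cKO range of 9.65 to 11.6, so the label of B8 held for the deleted gene. For the rest of the transcriptome B8 stood apart from the other 3 cKO libraries, and the results are therefore given with and without it. With B8 left out, 23.1% of 21122 genes were called lower and 23.7% higher. Summed CPM of dorsal midbrain markers spanned 838 to 935 over the controls, was 927 in B1 and 783 in B8, and lay above the controls in both P2 cKO mice (1150 and 1270). Against P2 cKO mice 4 of these 6 markers were called higher, where 22.9% of 22227 genes were, and no marker was at 0 in all libraries.

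Several of these enzymes have processed copies elsewhere in the genome, which bears on how many reads could be assigned to them. In annotated transcripts (GENCODE vM21, GRCm38), 53.9% of the distinct 50-base windows of Pgk1 were found in another gene as well, against 36.2% for Pgam1, 26.0% for Eno1, 8.36% for Gpi1, 6.43% for Aldoa and 4.18% for Tpi1. The share was 0.0298% for Pfkl and 0 for Hk1, Pfkm and Pfkp. At the read length of 100 bases, 51.7% of Pgk1 windows, 33.9% of Pgam1 windows and 20.4% of Eno1 windows were still shared.

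**Figure D1:**
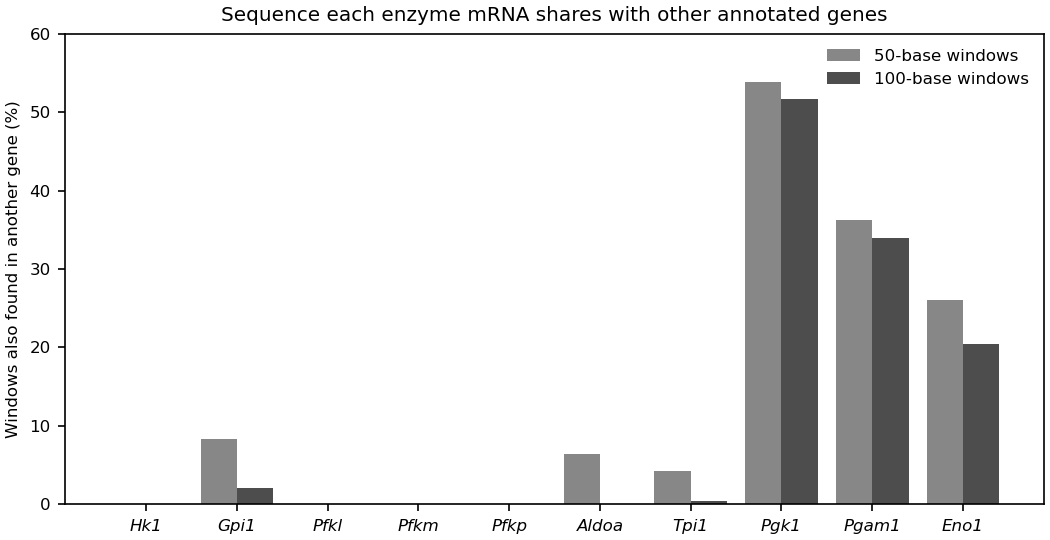
Percentage of distinct windows in the transcripts of each enzyme that occur in the transcripts of another annotated gene, for windows of 50 bases (light bars) and 100 bases (dark bars). Pgk1, Pgam1 and Eno1 share the most, 53.9%, 36.2% and 26.0% of 50-base windows, and Hk1, Pfkm and Pfkp share none.

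The coding sequence of Pgk1 (chrX:106187100-106203699, plus strand, 11 merged exons) matched the pseudogenes Pgk1-rs7 on chromosome 12 and Gm5537 on chromosome 3 over 1250 and 1251 of its 1251 bases. A stretch of 90 coding bases of Gpi1 from exon 12 (chr7:34207669-34207758, minus strand) is shown beside its copy Gm1840 on chromosome 8, because a read from it has nearly the same letters at both places. Capitals mark the 2 bases that differ.
Gpi1: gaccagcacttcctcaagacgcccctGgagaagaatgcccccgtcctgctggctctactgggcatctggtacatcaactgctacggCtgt
Gm1840: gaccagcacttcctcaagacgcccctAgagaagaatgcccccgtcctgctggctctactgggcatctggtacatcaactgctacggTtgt

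Both Pgk1 pseudogenes had 0 counts in the 7 libraries, which says little of their RNA, since reads with several alignments were set aside. Between 8.14% (B7) and 11.1% (A4) of counted fragments were set aside as not unique. Gm1840, whose copy differs from Gpi1 at scattered bases, took 190.0 ± 11.9 CPM in controls against 138 ± 36.6 CPM in the cKO group, below the 234 ± 9.38 and 192 ± 43.8 CPM of Gpi1 itself. The values of Pgk1, Pgam1 and Eno1 given here therefore rest on the part of each transcript that is unique.

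Promoters of all 10 enzymes matched the RefSeq table (GRCm38.p6). The 250 bases before a start are shown for Pgk1 (chrX:106186850-106187099, plus strand) and Aldoa (chr7:126799179-126799428, minus strand), the pair with the lowest fold changes, and for Pfkp (chr13:6648772-6649021, minus strand), which had the highest. Capitals mark ACGTG on either strand, the core letters of the element bound by hypoxia-inducible factors.
Pgk1: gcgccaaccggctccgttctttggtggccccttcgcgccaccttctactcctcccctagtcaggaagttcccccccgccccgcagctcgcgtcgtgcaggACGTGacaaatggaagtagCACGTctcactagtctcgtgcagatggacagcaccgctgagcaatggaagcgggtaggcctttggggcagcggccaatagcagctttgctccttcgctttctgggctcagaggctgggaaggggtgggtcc
Aldoa: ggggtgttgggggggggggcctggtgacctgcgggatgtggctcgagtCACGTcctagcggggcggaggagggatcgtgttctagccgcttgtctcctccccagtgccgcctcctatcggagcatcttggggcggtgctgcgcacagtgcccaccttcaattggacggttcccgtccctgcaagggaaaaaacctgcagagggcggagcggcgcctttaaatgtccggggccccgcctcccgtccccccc
Pfkp: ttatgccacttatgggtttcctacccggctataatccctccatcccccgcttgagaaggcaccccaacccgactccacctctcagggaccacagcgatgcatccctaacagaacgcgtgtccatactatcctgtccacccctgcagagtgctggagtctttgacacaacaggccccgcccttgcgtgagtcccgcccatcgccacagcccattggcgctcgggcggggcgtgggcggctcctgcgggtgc
These 5 letters occurred before at least 1 start of Pgk1, Aldoa, Pfkm and Pgam1, that is 4 of 10 enzymes, against 18.5% of 27025 genes in the table. Counted per start, 16.6% of 32851 starts had them. Enzymes with several starts had more chances of a match, and the Aldoa start after chr7:126800448-126800697 had none. Hk1, Gpi1, Pfkl, Pfkp, Tpi1 and Eno1 had none before any start. A match is a description of the letters and not of binding.

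With all 7 libraries included, the log2 fold change of cKO over control was below 0 for 8 of the 10 enzymes, with a median of -0.40 against 0.00 over all genes tested, 49.8% of which were below 0. None of the 10 passed the edgeR quasi-likelihood test at an adjusted p of 0.05. At an unadjusted p under 0.05 there were 5 lower (Aldoa, Tpi1, Pgk1, Pgam1 and Eno1), beside 13.7% of all genes, and 1 higher (Pfkp), beside 16.7%. By DESeq2, Eno1 alone was called (log2 fold change -0.62, DESeq2 adjusted p = 0.0491), where 1.60% of 36248 genes were called lower and 3.90% higher. That set includes genes with few counts that the edgeR filter left out, so these shares are not like for like with those of edgeR. By limma-voom, which gives each library a quality weight, 8 enzymes were called lower and Pfkp higher, beside 24.3% and 24.2% of all genes.

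**Figure D2:**
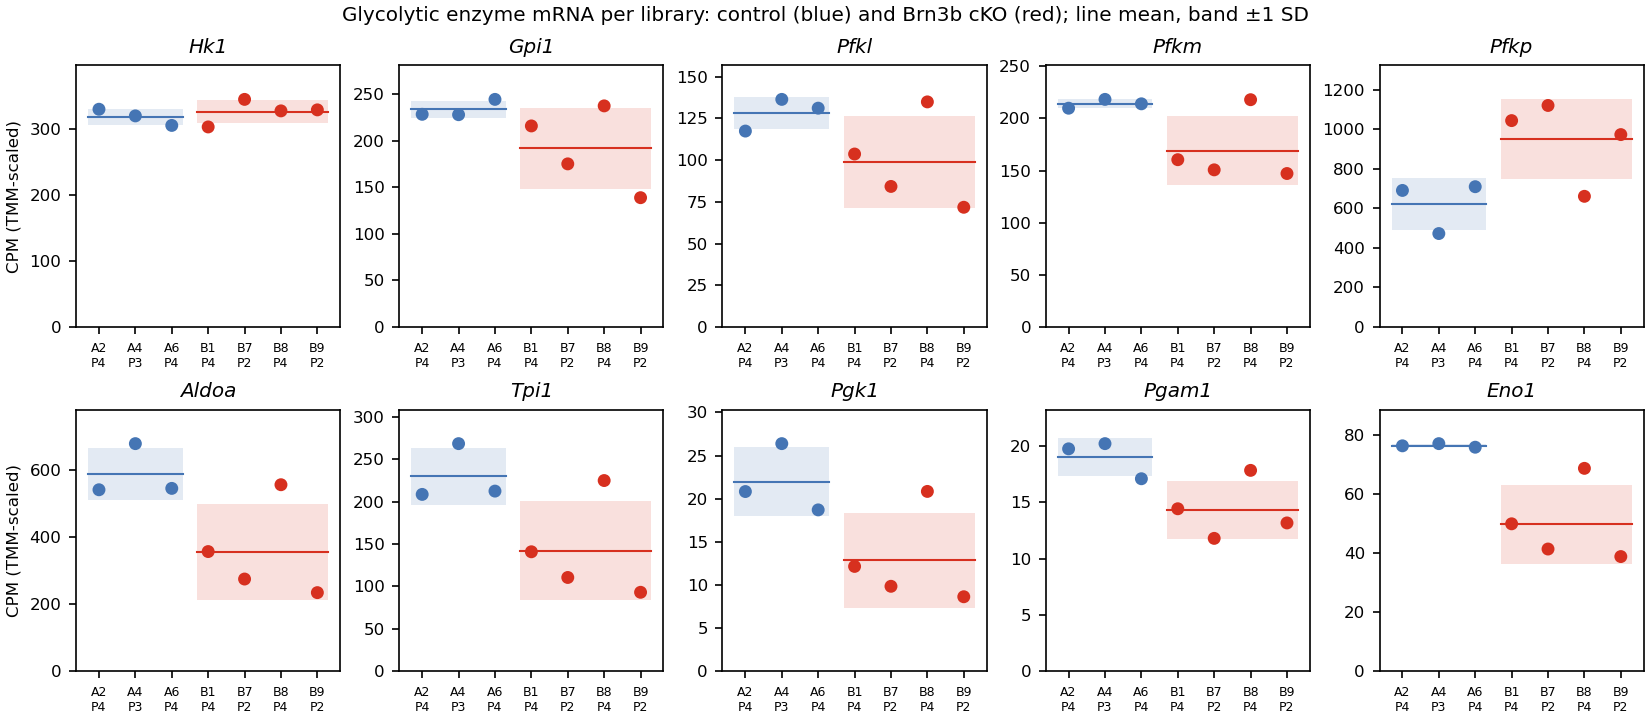
CPM (linear axis from 0) of each enzyme in the 3 control (blue) and 4 cKO (red) libraries, with postnatal day under each library; lines are group means and bands ±1 SD. In most panels B1, B7 and B9 lie apart from the controls while B8 lies among them, as for Aldoa, with B8 at 556 CPM and the other cKO libraries at 234 to 357.

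Hk1 (chr10:62268855-62379908, minus strand) encodes the main hexokinase of brain. It was at 330.0, 319.9 and 305 CPM in A2, A4 and A6 and at 303, 345, 328 and 329 CPM in B1, B7, B8 and B9. The groups overlapped throughout, with a log2 fold change of 0.03 ± 0.110 (SE, edgeR adjusted p = 0.845), and leaving out B8 gave the same value. A non-coding antisense gene, Hk1os, overlaps it.

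Gpi1 (chr7:34201330-34230336, minus strand) encodes glucose-6-phosphate isomerase. Its level was 228, 228 and 245 CPM in controls and 216, 175, 238 and 139 CPM in B1, B7, B8 and B9. B8 lay inside the control range and the other cKO libraries below it, and the log2 fold change was -0.28 ± 0.179 (SE, edgeR adjusted p = 0.288). Without B8 it fell by 0.41 on the log2 scale (edgeR adjusted p = 0.0323).

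Phosphofructokinase is the committing and most regulated step, built from muscle (Pfkm), liver (Pfkl) and platelet (Pfkp) type subunits. Pfkm (chr15:98092589-98132451, plus strand) was at 209.8, 218 and 214 CPM in controls and at 160.4, 151, 218 and 147 CPM in B1, B7, B8 and B9. Pfkl (chr10:77986947-78010083, minus strand) was at 117, 136 and 131 CPM in controls and at 104, 84.2, 135 and 71.8 CPM in B1, B7, B8 and B9. For both subunits B8 matched the controls and the other cKO libraries were lower than any control. Pfkp (chr13:6579768-6648777, minus strand) had the opposite order, with 690.4, 472 and 709 CPM in controls and 1044, 1120.2, 661 and 973 CPM in B1, B7, B8 and B9. Its log2 fold change was 0.61 ± 0.209 (SE, edgeR adjusted p = 0.138), and 83.8% of the genes tested had a lower one. Without B8, Pfkp rose by 0.74 ± 0.145 (SE, edgeR adjusted p = 0.00135), Pfkl fell by 0.57 on the log2 scale (edgeR adjusted p = 0.00441) and Pfkm fell by 0.49 (edgeR adjusted p = 0.00140). Pitrm1 overlaps Pfkp and Senp1 overlaps Pfkm on the other strand.

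Per kb of exon, Pfkp made up 39.1%, 29.1% and 38.7% of the phosphofructokinase level in A2, A4 and A6. In B1, B7 and B9 its share was 55.1%, 59.2% and 57.0%, and in B8 it was 36.6%. The group means were 35.6 ± 5.64% (SD, n = 3) and 51.9 ± 10.4% (SD, n = 4), a difference of 16.3 percentage points (exact permutation test, two-sided p = 0.171, 0.300 adjusted over 7 isozyme shares). With 3 against 4 libraries this test cannot go below 0.0571. The mean share of Pfkm was 49.5 ± 3.91% in controls and 37.2 ± 7.55% in cKO mice, and that of Pfkl 14.9 ± 1.83% and 10.8 ± 2.99%. By this measure the leading subunit was Pfkm in the controls and B8, and Pfkp in B1, B7 and B9. The measure divides by the merged exons of all annotated transcripts, 13401 bases for Pfkp and 3340 for Pfkm. By CPM without this scaling, Pfkp was above Pfkm in every library. The shares were not recomputed with the trend on GC content and exon length, given further on, removed. With that trend removed and B8 left out, the log2 fold change of Pfkp was 0.09 (edgeR adjusted p = 0.599).

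**Figure D3:**
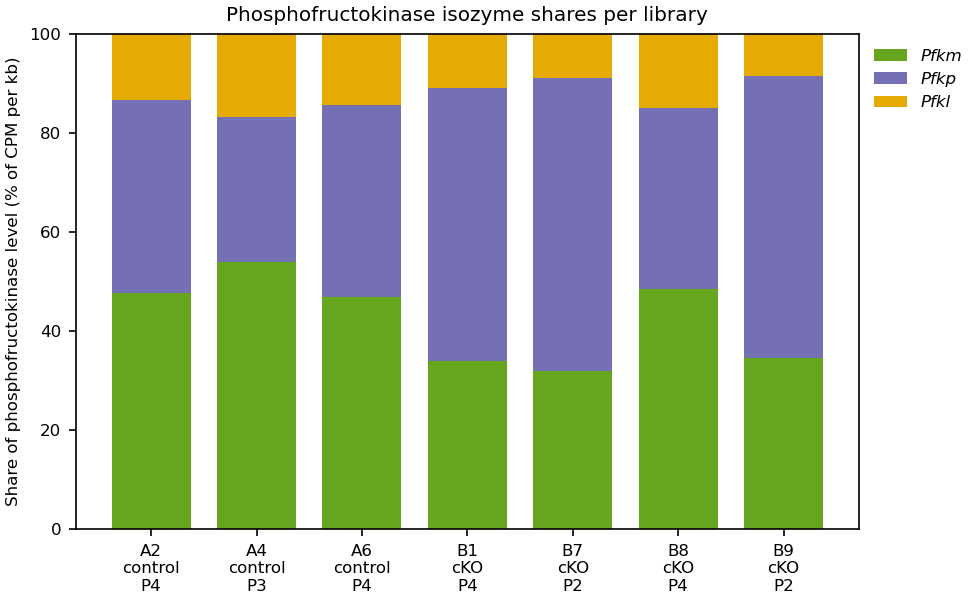
Share of each phosphofructokinase subunit in their summed level (percent of CPM per kb of exon, stacked to 100%) in the 7 libraries, with group and postnatal day below. Pfkp makes up 29.1% to 39.1% in the controls and 36.6% in B8, against 55.1% to 59.2% in B1, B7 and B9.

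Aldoa (chr7:126795234-126800751, minus strand) encodes the aldolase that splits fructose 1,6-bisphosphate, and had the highest level per kb of the 10 enzymes, 202 ± 26.9 CPM per kb (SD, n = 3) in controls. It was at 541, 679 and 545 CPM in controls and at 357, 275, 556 and 234 CPM in B1, B7, B8 and B9. B1, B7 and B9 were below any control and B8 was not. The log2 fold change was -0.73 ± 0.266 (SE, edgeR adjusted p = 0.138), and without B8 Aldoa fell by 1.03 ± 0.152 (SE, edgeR adjusted p = 0.000237) to 49.1% of the control mean. Fam57b overlaps it on the other strand.

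Tpi1 (chr6:124810586-124814296, minus strand), triose phosphate isomerase, followed the same order of libraries. Its values were 209, 268 and 212 CPM in controls and 141, 111, 225 and 93.0 CPM in B1, B7, B8 and B9, with a log2 fold change of -0.69 ± 0.272 (SE, edgeR adjusted p = 0.141). Without B8 it fell by 1.01 on the log2 scale (edgeR adjusted p = 0.000293), a level below that of any control library.

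Pgk1, the kinase that makes the first ATP gained in the pathway, lies on the X chromosome and had the lowest log2 fold change of the 10. Its unique reads gave 20.8, 26.4 and 18.7 CPM in controls and 12.1, 9.84, 20.8 and 8.63 CPM in B1, B7, B8 and B9. B8 fell among the controls, the rest below them. The log2 fold change was -0.78 ± 0.292 (SE, edgeR adjusted p = 0.139), lower than that of all but 8.02% of the genes tested, and without B8 Pgk1 fell by 1.12 ± 0.176 (SE, edgeR adjusted p = 0.000342). Xist, the RNA of the inactive X, was at 693 CPM in A2 and at most 2.61 CPM in the other libraries, and Pgk1 in A2 lay between the other 2 controls.

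Pgam1 (chr19:41911923-41918660, plus strand), phosphoglycerate mutase, had 19.7, 20.2 and 17.1 CPM in controls and 14.4, 11.8, 17.8 and 13.2 CPM in B1, B7, B8 and B9. The log2 fold change was -0.41 ± 0.175 (SE, edgeR adjusted p = 0.153), and without B8 it fell by 0.54 (edgeR adjusted p = 0.00840). Its pseudogene Pgam1-ps2 took 6.83 to 11.2 CPM over the controls against 8.93 to 12.1 CPM over the cKO libraries, and counts of both summed gave a log2 fold change of -0.23.

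Eno1 (chr4:150236721-150248879, plus strand), the non-neuronal enolase, was the 1 enzyme whose groups did not overlap with all libraries included. It stood at 76.3, 77.0 and 75.8 CPM in controls and at 49.9, 41.3, 68.6 and 38.8 CPM in B1, B7, B8 and B9, so that even B8 was below the lowest control. A lower and non-overlapping cKO group was seen for 8.01% of the genes tested. The exact permutation test over libraries gave a two-sided p of 0.0571, the smallest that 3 against 4 can give, and edgeR a log2 fold change of -0.62 ± 0.194 (SE, adjusted p = 0.138). Without B8, Eno1 fell by 0.82 ± 0.117 (SE, edgeR adjusted p = 0.000200). The neuronal enolase Eno2 made up 82.3 ± 0.791% (SD, n = 3) of the summed level of both per kb in controls and 83.2 ± 1.98% (SD, n = 4) in cKO mice (exact permutation test, two-sided p = 0.514).

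Leaving out B8 thus took the count of enzymes called from 0 to 9: 8 fell, beside 23.1% of all genes, and Pfkp rose, beside 23.7%. The same 8 were below all controls and Pfkp above all controls in B1, B7 and B9, where 28.0% of all genes lay wholly below and 28.2% wholly above. B8 was singled out after its values were seen to lie among the controls, so the p-values without it are conditional on that choice, and leaving out any other single library gave 0 enzymes called by edgeR. On the log2 scale, the 10 enzymes deviated from the control mean by a median of -0.40 (B1), -0.64 (B7) and -0.79 (B9), against 0.00 (B8) and -0.04 to 0.06 (controls). B1 is a P4 mouse like B8, A2 and A6, so by this median the 2 P4 cKO mice differed from each other more than B8 differed from the controls.

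Split by age, the 2 P2 cKO mice had 8 enzymes lower and Pfkp higher than the controls, where 24.0% of 22227 genes were lower and 22.9% higher. In them Aldoa fell by 1.23 ± 0.120, Tpi1 fell by 1.19 ± 0.129 and Pgk1 fell by 1.27 ± 0.171 on the log2 scale (SE), with edgeR adjusted p from 3.35e-05 to 0.000167. The 2 P4 cKO mice had none of the 10 called, and the log2 fold changes ran from -0.40 for Pgk1 to 0.45 for Pfkp; in that comparison 0.00476% of 21002 genes were called. The age groups of cKO mice compared directly had none called by edgeR, 0% of 22771 genes. At an unadjusted edgeR p under 0.05, 6 enzymes were lower at P2, beside 13.8% of genes. By DESeq2 6 were called lower, beside 3.69% of 36266 genes. That set includes genes with few counts that the edgeR filter left out. Without B1, 7 enzymes were called lower at P2 and 1 higher, where 14.5% of 24147 genes were lower and 15.1% higher. In that fit the P4 cKO group was B8 alone, so the spread among P4 cKO mice could not be measured. Age then cannot be told apart from what set B8 apart, and no conclusion is drawn from these calls. The median log2 fold change of the enzymes in that fit was -0.68. No control was of P2, so what age adds to the enzyme differences cannot be told apart from genotype.

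**Figure D4:**
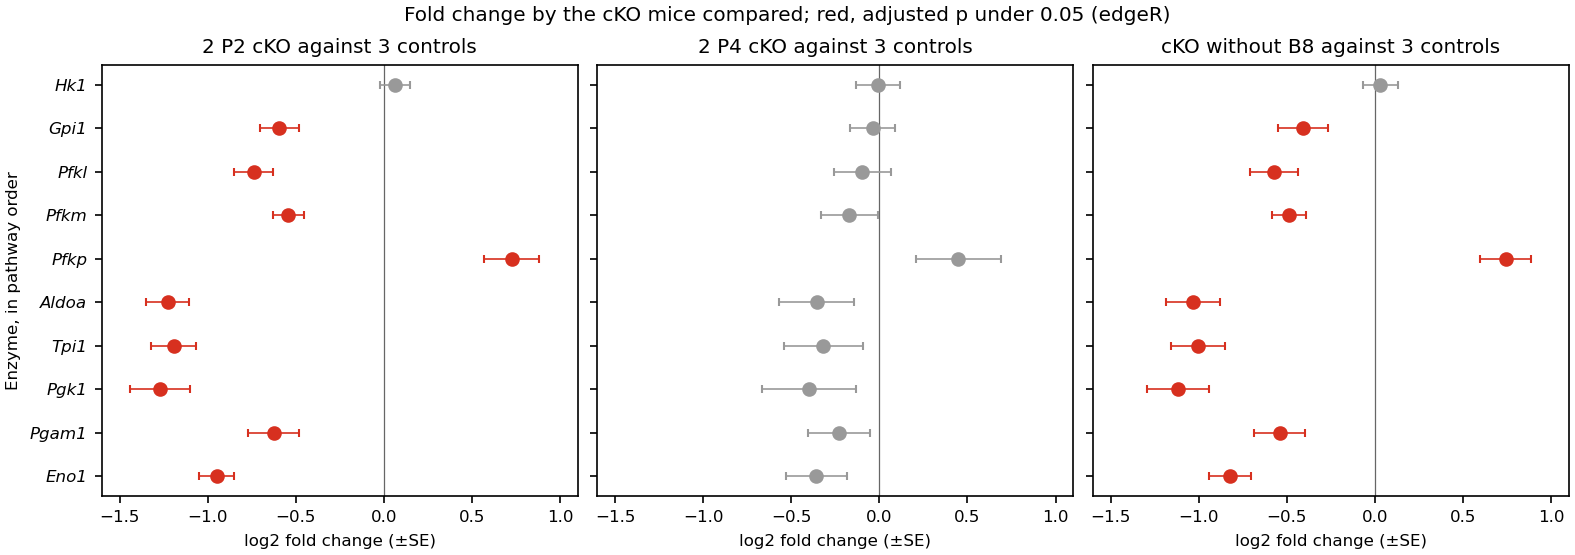
Log2 fold change of each enzyme over the 3 controls (points; bars, ±SE) for the 2 P2 cKO mice (left), the 2 P4 cKO mice (middle) and the cKO mice without B8 (right), red where the edgeR adjusted p is under 0.05. Of the 10 enzymes 9 are red on the left and right, with Pfkp at 0.73 and 0.74 and Hk1 near 0, and none in the middle.

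The difference between genotypes moved with transcript length over the whole transcriptome. Among 15513 protein-coding genes tested, the log2 fold change had a Spearman rho of 0.577 with merged exon length and of -0.429 with GC content, as a description over genes that share the same libraries. By quartile of exon length, the medians were -0.44, -0.11, 0.10 and 0.37 from the shortest to the longest. The shortest quartile deviated from the control mean by -0.47, -0.64 and -0.59 in B1, B7 and B9 and by -0.04 in B8, and the longest by 0.41, 0.55, 0.52 and 0.00 in that order. Pfkp has the longest exons of the 10, 13401 bases, and Hk1 follows with 8532, while Pgk1 and Pgam1, with 2244 and 1982 bases, are in the shortest quartile. Eno1 (5379 bases), Gpi1 (6452) and Pfkl (6675) are in the third quartile. GC content of the 10 ran from 48.0% for Pfkp to 57.4% for Eno1.

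With a smooth trend on GC content and exon length removed from each library, Pfkp moved to 0.09 ± 0.130 (SE, edgeR adjusted p = 0.695) and Hk1 to -0.03. The others stayed below 0, from -0.17 for Pfkm to -0.72 for Pgk1, and none was called with all libraries included. Without B8, 6 enzymes fell in the fit with the trend removed, beside 19.4% of all genes lower and 14.3% higher. These were Gpi1 (-0.57), Pfkl (-0.50), Aldoa (-0.61), Tpi1 (-0.75), Pgk1 (-0.99) and Eno1 (-0.62), with edgeR adjusted p from 0.000681 to 0.00721. Pfkm was at -0.23 (edgeR adjusted p = 0.0629), Pgam1 at -0.24 (edgeR adjusted p = 0.195) and Pfkp at 0.09 (edgeR adjusted p = 0.599). Without B8 and with the trend removed, the higher level of Pfkp was thus not called, while lower levels of these 6 enzymes were. The fit without B8 was chosen after seeing the data.

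**Figure D5:**
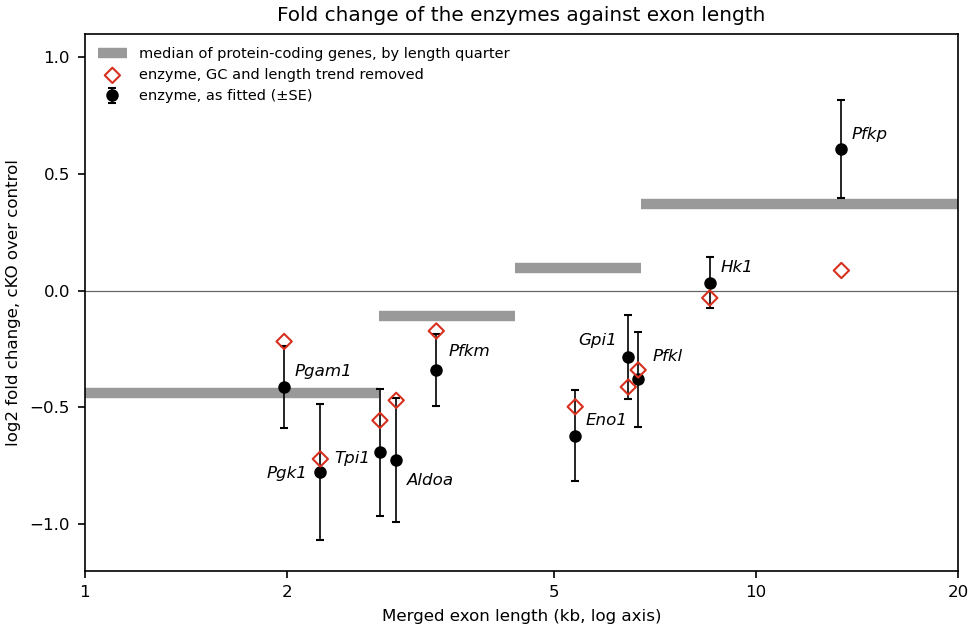
Log2 fold change of cKO over control with all 7 libraries (black points; bars, ±SE) against merged exon length (kb, log axis) for the 10 enzymes; grey bars give the median of protein-coding genes in each quartile of exon length, and open red diamonds the enzymes with the GC and length trend removed. The medians go from -0.44 to 0.37, and Pfkp goes from 0.61 to 0.09 with the trend removed while Pgk1 goes from -0.78 to -0.72.

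Per kb of exon, the order in controls was Aldoa (202 CPM per kb), Tpi1 (83.5), Pfkm (64.1), Pfkp (46.6), Hk1 (37.3), Gpi1 (36.2), Pfkl (19.2), Eno1 (14.2), Pgk1 (9.79) and Pgam1 (9.59). Merged exon length takes in the exons of all annotated transcripts, 13401 bases for Pfkp and 3340 for Pfkm. This order therefore depends on the annotation. Among neighbours, the control libraries of Pfkp (35.2 to 52.9), Hk1 (35.8 to 38.7) and Gpi1 (35.3 to 37.9) overlapped, as did those of Pgk1 and Pgam1. Scaled by the length found in no other gene, Pgk1 had 20.2 CPM per kb and moved from the ninth to the seventh place. In cKO mice the mean of Pfkp was 70.8 CPM per kb (49.3 to 83.6), above those of Tpi1 (51.7, from 33.8 to 81.7) and Pfkm (50.6, from 44.1 to 65.3), with overlapping libraries.

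Other genes of the pathway were taken from a list of 18, of which 17 passed the filter and none was called with all libraries included. Their median log2 fold change was -0.22, and 13 were below 0. The 4 with an unadjusted p under 0.05 were lower, beside 13.7% of all genes lower and 16.7% higher. These were Aldoc, the astrocytic aldolase (-0.55), Pkm, the pyruvate kinase of brain (-0.51), and Ldha and Ldhb, the lactate dehydrogenase subunits (-0.76 and -0.65). Ldha was at 214, 269.7 and 207 CPM in controls and at 142, 104, 208 and 89.7 CPM in B1, B7, B8 and B9, again with B8 among the controls. Leaving out B8, 7 of the 17 were called lower and none higher, against 23.1% and 23.7% of all genes.

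Eno2 had a log2 fold change of -0.49 (edgeR adjusted p = 0.214), Bpgm, which makes 2,3-bisphosphoglycerate, -0.22, and the muscle enolase Eno3 -0.31. Hexokinases other than Hk1 were low: Hk2 at 4.36 ± 0.863 CPM (SD, n = 3) in controls (-0.32), Hk3 at 1.66 ± 0.179 (-0.04) and Hkdc1 at 0.688 ± 0.0732 (0.21). Gapdhs (0.26), Pgam2 (0.37), Eno4 (0.67) and Pklr (-0.05) were at most 4.22 CPM in any library. Gapdh, one of the most abundant brain mRNAs, was counted at 6.04 ± 0.964 CPM in controls against 5.57 ± 1.39 in the cKO group, and 24.7% of its 50-base windows occur in other annotated genes, 115 in number. Pgk2, the testis kinase, had 0 counts in the 7 libraries.

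Genes upstream and beside the pathway did not all go the same way. Of 8 glucose and lactate transporters none was called, with Slc2a3, the neuronal glucose transporter and the most abundant, at 116 ± 9.40 CPM in controls against 119 ± 10.7 in the cKO group, and extremes at Slc2a8 (-0.60) and the lactate transporter Slc16a7 (0.62). Without B8, 2 of the 8 were called lower and 1 higher, near or below the 23.1% and 23.7% of all genes, and against P2 cKO mice 3 lower and 1 higher, where 24.0% and 22.9% of all genes were. Of 9 regulators none was called, but their median was 0.43, from the kinase-phosphatase Pfkfb1 (-0.34) to Arnt, the partner of hypoxia-inducible factors (0.70, unadjusted p = 0.00195, edgeR adjusted p = 0.138). Hif1a, the most abundant of them, was at 96.7 ± 3.75 CPM in controls against 128 ± 32.3 in the cKO group. Without B8, 5 of the 9 regulators were called higher and none lower, against 23.7% and 23.1% of all genes. With the GC and length trend removed and all libraries included, the median of the regulators was 0.18. At an unadjusted edgeR p under 0.05, 2 in place of 4 were higher, where 16.7% of all genes were higher before the trend was removed. After it was removed, 5732 of 21775 genes passed in either direction, 3344 of them lower.

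Of 12 genes for pyruvate entry into mitochondria the median was 0.08, from the pyruvate carrier subunit Mpc2 (-0.70) to the kinase Pdk4 (0.60), with Pdha1 the most abundant (0.17). Without B8, 2 of the 12 were called lower and 2 higher, below the 23.1% and 23.7% of all genes. Against P2 cKO mice 4 of the 12 were lower and 3 higher, where 24.0% and 22.9% of all genes were, and with the trend removed their median was -0.06. The 16 genes of side branches had a median of -0.32, from Pgls of the pentose phosphate pathway (-1.08, edgeR adjusted p = 0.138) to Rpe (0.40), with brain glycogen phosphorylase Pygb the most abundant (-0.06). Without B8, 9 of these 16 were called lower and 1 higher, against 23.1% and 23.7% of all genes, and with the trend removed their median was -0.34. Of 12 further hypoxia-responsive genes, with a median of -0.06, the extremes were Ankrd37 (-0.62) and Kdm3a (0.61), and Egln1, the most abundant, was at 0.05. Without B8, 3 of these 12 were called lower and 1 higher, against 23.1% and 23.7% of all genes, so the list stood near or below the share over all genes.

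With all libraries included, summed cell type markers overlapped between genotypes in each of the 10 lists followed. Without B8, the microglial list no longer did. Summed astrocyte markers were 2510 to 2800 CPM in controls, 2550 in both B1 and B8 and 1970 to 2220 in the P2 cKO mice. The sum was carried by Fabp7, at 1277 to 1545 CPM in controls and 761 and 576 CPM in B7 and B9. Against P2 cKO mice 4 of the 8 astrocyte markers were called lower and 3 higher, with a median of -0.08, where 24.0% and 22.9% of all genes were called. Microglial markers were 116 to 173 CPM in controls, 105 in B1, 126 in B8 and 84.6 to 91.5 in the P2 cKO mice, and without B8 4 of 7 were called lower and none higher, against 23.1% and 23.7% of all genes. Summed neuronal markers were 6820 to 7580 CPM in controls, 7050 in B1, 6840 in B8 and 7180 to 7840 in the P2 cKO mice. Red blood cell markers were 133 to 499 CPM in controls, 182 in B1, 180.0 in B8 and 58.5 to 62.4 in the P2 cKO mice. Oligodendrocyte-lineage markers were 389 to 443 CPM in controls, 462 in B1, 458 in B8 and 339 to 376 in the P2 cKO mice. Markers of dividing cells were 47.3 to 68.4 CPM in controls, 90.3 in B1, 70.6 in B8 and 48.5 to 67.8 in the P2 cKO mice. Against P2 cKO mice, 5 of 7 red blood cell markers were called lower and none higher, 4 of 9 oligodendrocyte-lineage markers lower and 2 higher, and 4 of 6 dividing-cell markers lower and 1 higher, where 24.0% and 22.9% of all genes were called. The summed endothelial, choroid plexus and meningeal markers overlapped between genotypes with and without B8. In the comparison with P2 cKO mice 3 of 6 endothelial markers were called higher and 1 lower, and of the 11 neuronal markers 5 were lower and 5 higher, again beside 24.0% of all genes lower and 22.9% higher. Their part in the enzyme levels was not tested. In bulk tissue, fewer cells of a type and less mRNA per cell cannot be told apart.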

How the data were processed

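RNA of dorsal midbrain from 7 mice was sequenced as strand-specific, polyA-selected paired-end libraries. Per the labels and methods, the authors aligned reads with TopHat2 and Bowtie2 to GRCm38.p5 and deposited raw read counts per gene made with HTSeq on GENCODE. The strand setting is not given in the sources used here. Each count file also holds 5 entries that name no gene (31.0% to 38.2% of counted fragments), which were left out. IDs were named through GENCODE vM21 (52489 of 52636 matched). Genes passing filterByExpr (21817) were tested with edgeR 4.0.16 quasi-likelihood on TMM-scaled counts, Benjamini-Hochberg adjusted. DESeq2 1.42.0 and limma 3.58.1 were alternatives. Exact tests were two-sided. On simulated data for cKO against control with 200 of 21817 genes changed 2-fold, edgeR recovered 99 and called 5 falsely. Log2CPM used a prior count of 2. Levels per kb used merged exon length. The files show 1 mouse per library as far as the labels go, so n is libraries and p-values measure the spread between them. The members and lists were chosen with earlier results of these data known. Genes named were the 10 enzymes, other pathway genes tested, the extremes and the most abundant gene of each further list, the deleted gene and Xist. Other genes are named as regulators, markers or overlapping copies. The sequence matches used annotated transcripts. Some genes of the lists and 1 sequence are not reported here.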

Additional observations from a re-analysis of the deposited data

Results flagged for a closer look

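The share of Pfkm in phosphofructokinase per kb was 48.4% in B8 and 31.9% to 34.6% in the other 3 cKO libraries. The gap from B8 to the nearest of them was 0.839 of the group's range, above the 95% limit of 0.829 for 4 samples. This was 1 flag in 34 groups tested, where chance gives about 1 in 20.

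Relative to the control mean, Hk3 was lower in both P2 cKO mice and higher in both P4 cKO mice, a difference of -1.33 on the log2 scale, with 35 to 114 counts per library. The test between the ages gave -1.42 by edgeR (adjusted p = 0.100) and -1.39 by DESeq2 (adjusted p = 0.0184). Without B8, which left B1 alone for P4, the difference was -1.09. Pklr went the other way, by 1.01, with 15 to 112 counts per library, and was called by neither tool (edgeR 1.05, adjusted p = 0.203; DESeq2 1.09, adjusted p = 0.180).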

How the results depend on the processing

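No paired analysis was possible because no number in the labels ties a control library to a cKO library. Each of the 10 enzymes kept its direction in the alternatives run except Hk1, which stood at -0.009 in P4 mice alone, -0.0084 against P4 cKO mice, -0.0313 with the GC and length trend removed and -0.0454 with that trend removed and B8 left out. Genes called numbered 1 with all libraries, 1994 by DESeq2, 10583 by limma-voom, 0 in P4 mice alone, 10425 against P2 cKO mice, 7111 with the trend removed and B8 left out, and 1 to 9867 with single libraries left out. Enzymes called numbered 0, then 1, 9, 0, 9 and 6 in the same order, and 0 to 9 with single libraries left out, 9 of them without B8. Other pathway genes called numbered 7 by limma-voom, 8 against P2 cKO mice, 7 with the trend removed and B8 left out, and 0 to 7 with single libraries left out. Between P2 and P4 cKO mice 6 enzymes were called by DESeq2, beside 3.69% of 36266 genes lower, and 0 by edgeR. Leaving out a single cKO library left 1 mouse in an age group. The median log2 fold change of the enzymes then ran from -0.68 to -0.35. Enzymes without overlap of the groups numbered 1 to 9 with single libraries left out. Without B8 there were 8 lower and 1 higher, where 28.0% of all genes lay wholly below and 28.2% wholly above the controls. The cause of these changes was not tested. With postnatal day as a covariate no enzyme was called. The trend removed together with B8, and sums of counts with annotated copies, were chosen after seeing the data. Sums and lengths planned from the genome were matched on annotated transcripts instead.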

Other observations

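Counts on 2 copies of Eno1 differed between libraries in a way that Eno1 itself did not. Eno1b was at 32.0 CPM in A4 and 26.0 CPM in B8, and between 5.49 and 11.3 CPM in the other 5 libraries. The pseudogene Gm4735 was at 36.5 and 36.9 CPM in A2 and A6, at 22.9 CPM in A4 and at 22.4 CPM in B8, with 16.2 to 22.5 CPM in B1, B7 and B9. Eno1 in A4 was 77.0 CPM, close to A2 and A6. Summing Eno1 with its copies gave a log2 fold change of -0.61, against -0.62 for Eno1 alone.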
